A study of Mus musculus with 8 samples.

Results

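Chemokine and cytokine genes known from gut epithelium were followed by RNA sequencing in lineage-traced Paneth cells of the mouse intestine. The set was a list of 10 gene symbols, Ccl25, Ccl20, Cxcl10, Ccl9, Ccl28, Cxcl16, Cx3cl1, Il18, Il15 and Tnfsf10, and all 10 were found among the 24013 symbols of the expression table. The list was applied by symbol, with no threshold on a measured value, but it was chosen with earlier results of these data known. The mice carried Lyz1CreER; R26R-tdT, in which the Lyz1 promoter drives a tamoxifen-inducible Cre, so that tamoxifen marks Lyz1-expressing Paneth cells and all their later progeny with tdTomato. Every group came from such mice of mixed C57/BL6 and 129 background, aged 8 to 14 weeks and given 1 dose of 10 mg tamoxifen.

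Cells were sorted as viable, CD45-negative, EpCAM-positive and tdTomato-positive, and then split by CD24, a surface protein that Paneth cells carry. The irradiated CD24− group (3 libraries) held labelled cells outside the Paneth gate, called derivatives by the submitters, taken 5 days after radiation. The irradiated CD24+ group (3 libraries) held the Paneth gate of mice at the same time after radiation, and the non-irradiated CD24+ group (2 libraries) held the Paneth gate of mice without radiation. CD24− cells of mice without radiation were not analysed here, so the gate and the radiation cannot be told apart between irradiated CD24− and non-irradiated CD24+ cells.

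Chemokines are small secreted proteins that guide leukocytes through G-protein-coupled receptors, and gut epithelium uses them to place T cells, dendritic cells and plasma cells along the crypt and villus. Epithelial IL-15 and IL-18 act on intraepithelial lymphocytes and on barrier defence. Radiation can start inflammatory signalling in the intestine through dying cells and through interferon and NF-kB pathways.

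The deposited values are FPKM, that is fragment numbers divided by transcript length and by library size, so levels of different genes can be compared per length. Fold changes are differences of log2(FPKM + 1), which understates the change of genes near or under 1 FPKM. They were tested with limma over 11190 genes with at least 1 FPKM in at least 2 libraries, and a call means a p under 0.05 after Benjamini-Hochberg adjustment over these genes. Of the 10 genes 9 passed this filter and Ccl28 did not. The libraries summed to 540467 to 1638347 FPKM, and the 3 CD24− libraries had the lowest sums. The epithelial marker Epcam stood at 669 ± 69.8 FPKM in irradiated CD24−, 258 ± 20.1 in irradiated CD24+ and 183 ± 60.9 in non-irradiated CD24+ cells (SD, n = 3, 3 and 2). Ptprc, which encodes CD45, was under 1 FPKM in all 8 libraries.

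Ccl25 and Il18 had the highest levels of the set in CD24− cells, and Ccl9 had the highest level in irradiated CD24+ cells. The mouse RefSeq promoter table (GRCm38.p6, another build than the mm9 of the expression files) held 8 of the 10 genes in 9 windows. The 250 bases before the start are shown for these 3 genes, whose levels went in opposite directions between the gates, and for Cxcl10, the classical interferon-induced member. The windows lie at chr11:83578637-83578886 on the minus strand for Ccl9, chr8:4324960-4325209 and chr8:4349338-4349587 on the plus strand for the 2 listed starts of Ccl25, chr9:50554450-50554699 on the plus strand for Il18 and chr5:92348890-92349139 on the minus strand for Cxcl10. They are written 5′ to 3′ along the gene. Capitals mark matches, on either strand, to any of 3 motifs. These were the interferon-stimulated response element (GAAA, any 2 bases, GAAA), the kappa B site (GGGA, any 1 base, TT, any 1 base, CC) and the CDX site (TTTATG).
Ccl9: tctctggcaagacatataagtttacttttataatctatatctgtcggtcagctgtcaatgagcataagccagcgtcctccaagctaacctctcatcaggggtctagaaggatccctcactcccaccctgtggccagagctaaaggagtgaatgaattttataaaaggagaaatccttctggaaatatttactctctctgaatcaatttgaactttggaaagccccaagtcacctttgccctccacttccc
Ccl25, first listed start: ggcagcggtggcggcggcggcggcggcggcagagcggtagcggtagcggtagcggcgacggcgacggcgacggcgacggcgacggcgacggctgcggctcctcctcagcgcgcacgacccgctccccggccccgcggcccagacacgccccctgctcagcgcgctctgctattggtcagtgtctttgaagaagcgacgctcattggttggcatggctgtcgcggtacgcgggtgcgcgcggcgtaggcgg
Ccl25, second listed start: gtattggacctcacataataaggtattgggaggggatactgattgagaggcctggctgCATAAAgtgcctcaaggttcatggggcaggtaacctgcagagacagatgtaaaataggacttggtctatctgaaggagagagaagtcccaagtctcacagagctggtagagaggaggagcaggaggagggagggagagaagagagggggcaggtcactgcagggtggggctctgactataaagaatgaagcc
Il18: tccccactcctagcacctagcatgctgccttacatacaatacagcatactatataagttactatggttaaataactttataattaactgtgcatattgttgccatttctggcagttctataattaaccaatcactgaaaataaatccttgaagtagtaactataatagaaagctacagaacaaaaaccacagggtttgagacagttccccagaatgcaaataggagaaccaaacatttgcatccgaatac
Cxcl10: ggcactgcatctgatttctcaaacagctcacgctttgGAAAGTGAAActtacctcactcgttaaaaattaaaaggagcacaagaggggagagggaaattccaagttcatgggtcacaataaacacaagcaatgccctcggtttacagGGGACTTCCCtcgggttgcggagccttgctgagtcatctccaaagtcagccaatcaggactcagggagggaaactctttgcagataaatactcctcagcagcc
The Cxcl10 window held both an interferon-stimulated response element and a kappa B site, which began at bases -213 and -103 relative to the start. The first motif was found in 2.98% of all 32851 windows and the second in 0.98%. The second Ccl25 start had 1 CDX match, on the other strand at base -192, and 10.8% of all windows held that motif. The windows of Ccl9 and Il18 held no match to these 3 motifs. The matched motifs did not overlap each other. A match describes the letters only, and the windows were not tested for binding.

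Across the 3 groups the genes fell into different patterns. Il18, Ccl25, Cx3cl1, Cxcl16, Il15 and Ccl20 were higher in irradiated CD24− than in irradiated CD24+ cells, Ccl9 was lower, and Tnfsf10 and Cxcl10 were not called. In irradiated against non-irradiated CD24+ cells no member was called, although Ccl9 was higher in every irradiated library.

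**Figure D1:**
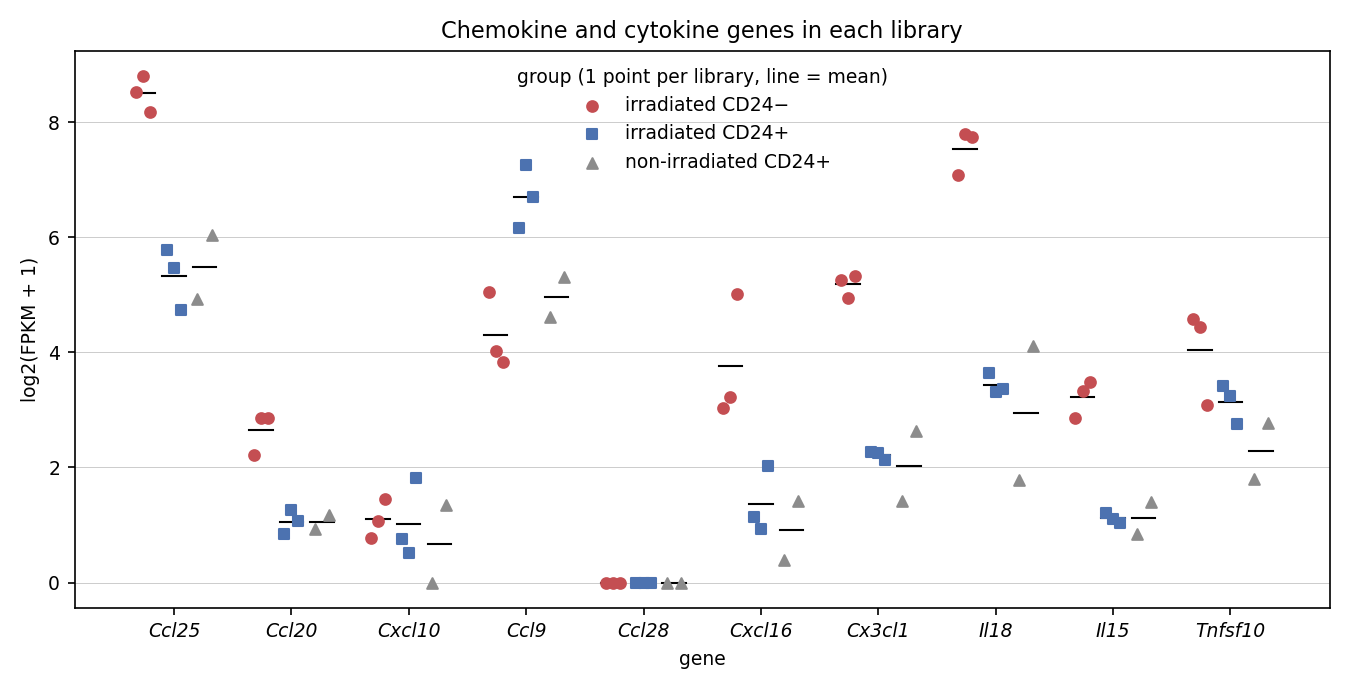
Levels of the 10 genes in each library, as log2(FPKM + 1), in irradiated CD24−, irradiated CD24+ and non-irradiated CD24+ cells. Each point is 1 library and the line is the group's mean. Ccl25 and Il18 are far apart between the CD24− and CD24+ libraries, Ccl9 is highest in the irradiated CD24+ libraries, and Ccl28 is listed at 0 in all 8.

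Irradiated CD24− cells were compared with irradiated CD24+ cells to ask which of these signals the labelled cells outside the Paneth gate carried after radiation. Of the 9 tested members 6 were called higher and 1 lower. The background was high, since 48.6% of all tested genes were called higher and 7.27% lower, and 55.9% in either direction. The members' median log2 fold change was 2.11, against 0.51 over all genes, and 7 of the 9 lay above that median. The same 6 and 1 members did not overlap between the groups, as did 59.1% of all genes in the higher and 9.31% in the lower direction.

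Ccl25, the small-intestinal chemokine that recruits T cells bearing CCR9, had 368, 445 and 287 FPKM in the CD24− libraries, against 53.8, 43.4 and 25.7 FPKM in the irradiated CD24+ libraries. The lowest CD24− library was thus above the highest CD24+ library. It averaged 367 ± 79.0 FPKM in CD24− and 41.0 ± 14.2 FPKM in CD24+ cells (SD, n = 3 each). The log2 fold change was 3.17 ± 0.35 (SE, limma adjusted p = 3.36e-05). Its exons share 56 bases with Elavl1 on the opposite strand in the GENCODE annotation, and the library kit keeps no strand. Elavl1 stood at 9.0 to 11.8 FPKM in CD24− and 6.3 to 7.9 FPKM in irradiated CD24+ libraries, far under the CD24− level of Ccl25.

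Il18 encodes a cytokine of the interleukin-1 family that is stored as a precursor and cleaved by caspase-1. It stood at 134, 221 and 214 FPKM in CD24− libraries, against 11.5, 9.0 and 9.2 FPKM in irradiated CD24+ libraries. The groups did not overlap, and at 4.10 ± 0.47 its log2 fold change was the widest of the 9 members (SE, limma adjusted p = 3.73e-05). Only Ccl25 had a higher level than Il18 among the members in CD24− cells, where the 2 genes' ranges did not overlap.

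Cx3cl1 and Cxcl16 are chemokines made as transmembrane proteins, which bind cells carrying CX3CR1 and CXCR6 and can be shed by ADAM proteases. Cx3cl1 had 37.4, 29.9 and 39.1 FPKM in CD24− libraries and 3.8, 3.8 and 3.4 FPKM in irradiated CD24+ libraries. Both groups were tight, and the log2 fold change was 2.96 ± 0.28 (SE, limma adjusted p = 1.19e-05). Cxcl16 had 7.2, 8.3 and 31.5 FPKM in CD24− libraries and 1.2, 0.9 and 3.1 FPKM in irradiated CD24+ libraries. In both groups the third replicate was the highest for Cxcl16, and without the third CD24− library its log2 fold change was 1.76, against 2.39 ± 0.49 with it (SE, limma adjusted p = 0.00168). Cxcl16 shares 552 exonic bases with Zmynd15 on the opposite strand. Zmynd15 stood at 0.84, 0.81 and 3.56 FPKM in CD24− and 0.18, 0.21 and 0.48 FPKM in irradiated CD24+ libraries, so that it moved with Cxcl16 at a lower level, and reads of the shared bases cannot be told apart.

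Il15, whose product supports intraepithelial lymphocytes when presented by its receptor chain, had 6.2, 9.1 and 10.2 FPKM in CD24− libraries and 1.3, 1.2 and 1.1 FPKM in irradiated CD24+ libraries. Its log2 fold change was 2.11 ± 0.21 (SE, limma adjusted p = 1.74e-05). Ccl20, the ligand of CCR6 known from follicle-associated epithelium, had 3.6, 6.2 and 6.3 FPKM in CD24− libraries and 0.79, 1.40 and 1.09 FPKM in irradiated CD24+ libraries. The groups of both genes stood apart, and Ccl20 differed by 1.59 ± 0.21 on the log2 scale (SE, limma adjusted p = 0.000101). Approximated from low-value steps, Ccl20 rested on about 25 to 210 reads per library.

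Ccl9 is a mouse chemokine that acts on CCR1. It had 32.0, 15.3 and 13.2 FPKM in CD24− libraries, against 70.5, 151 and 103 FPKM in irradiated CD24+ libraries. It was the member that went the other way, with every CD24− library under every irradiated CD24+ library. The means were 20.2 ± 10.3 and 108 ± 40.7 FPKM (SD, n = 3 each), and Ccl9 fell by 2.41 ± 0.37 on the log2 scale (SE, limma adjusted p = 0.00025).

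Tnfsf10 encodes TRAIL, a death ligand of the TNF family. It stood at 23.0, 20.7 and 7.5 FPKM in CD24− libraries and at 9.6, 8.5 and 5.7 FPKM in irradiated CD24+ libraries. The third CD24− library lay inside the CD24+ range. The log2 fold change was 0.90 ± 0.39 and was not called (SE, limma adjusted p = 0.0689). With the replicate number as a block it was called at the same size (SE 0.26, limma adjusted p = 0.00352), and without the third CD24− library it was 1.38 (limma adjusted p = 0.00194).

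Cxcl10, the interferon-induced ligand of CXCR3, stayed near 1 FPKM. It had 0.71, 1.10 and 1.72 FPKM in CD24− libraries and 0.68, 0.43 and 2.50 FPKM in irradiated CD24+ libraries. The groups overlapped, with a log2 fold change of 0.07 and a 95% interval of -0.76 to 0.91 (limma adjusted p = 0.881). Cxcl10 rested on about 0 to 124 approximated reads per library, which limits what could be detected. Ccl28, an epithelial chemokine for CCR10 and CCR3, was listed at 0 in all 8 libraries and was not tested.

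**Figure D2:**
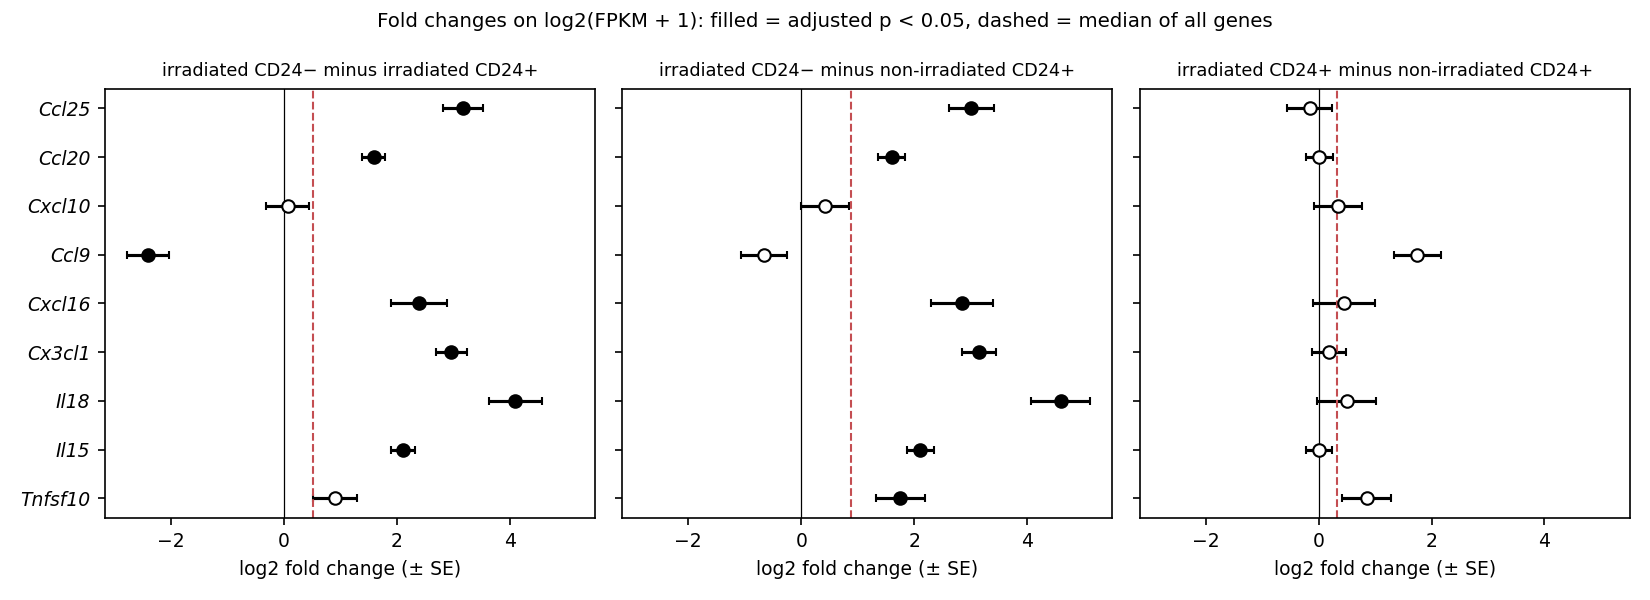
Log2 fold changes of the 9 tested genes with their standard errors in the 3 comparisons. Filled points have a limma adjusted p under 0.05 and the dashed line is the median of all 11190 genes. In the left panel 6 filled points lie to the right of the median and Ccl9 to the left of 0. In the right panel every point is open and Ccl9 lies farthest from 0.

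In bulk samples a larger share of cells that express a gene and more RNA per cell cannot be told apart, and this applies to every difference given here. Enterocyte markers moved with the CD24− gate. The 10 enterocyte genes summed to 15903 to 35101 FPKM in CD24−, 820 to 1317 FPKM in irradiated CD24+ and 516 to 2360 FPKM in non-irradiated CD24+ libraries, and 10 of the 10 were called higher in CD24− than in irradiated CD24+ cells. The 8 Paneth markers summed to 3575 to 22250, 289959 to 301289 and 337761 to 401490 FPKM in these groups. The part of either in the members' differences was not tested. The 16 immune markers in the table summed to 180, 38.2 and 16.0 FPKM in CD24−, 585, 542 and 382 FPKM in irradiated CD24+ and 530 and 200 FPKM in non-irradiated CD24+ libraries. Of the 4 tested, 1 was called higher and 1 lower in CD24− than in irradiated CD24+ cells. The sums in CD24+ cells were mostly Lyz2, a near copy of the Paneth gene Lyz1, at 365 to 509 FPKM in irradiated CD24+ and 3.4 to 35.9 FPKM in CD24− libraries, and the highest CD24− value was Cd74, at 118 FPKM in replicate 1. The 9 defining immune markers, which include Ptprc and the T-cell genes Cd3e and Cd3g, summed to 2.80 to 4.20 FPKM in CD24−, 0.47 to 0.98 FPKM in irradiated CD24+ and 0.92 to 1.56 FPKM in non-irradiated CD24+ libraries, with S100a8 and S100a9 listed at 0 throughout. Most of the CD24− sum was Itgam at 2.4 to 2.9 FPKM, while Cd3e, Cd3g and Ptprc stayed under 1 FPKM. The part of immune markers in the members' differences was not tested.

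Irradiated CD24+ cells were compared with non-irradiated CD24+ cells to ask what changed inside the Paneth gate after radiation. No member was called with limma, nor was any of the 11190 genes (0.0%). At an unadjusted p under 0.05 there was 1 member, Ccl9, against 12.7% of all genes. The members' median log2 fold change was 0.35, near the 0.32 of all genes. The 10 enteroendocrine markers summed to 277 to 1175 FPKM in irradiated and 148 to 152 FPKM in non-irradiated CD24+ libraries. For 13 tuft cell markers the sums were 11.3 to 25.9 and 34.4 to 48.9 FPKM. Those of 8 goblet markers overlapped, at 9189 to 15215 and 10619 to 11983 FPKM. No gene of these marker lists was called, and their part in the members' values was not tested.

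Ccl9 had 70.5, 151 and 103 FPKM in irradiated CD24+ libraries, against 23.5 and 38.4 FPKM in non-irradiated CD24+ libraries. All 3 irradiated libraries were above both non-irradiated ones, which was also true of 34.2% of all genes. The log2 fold change was 1.75 ± 0.41 with a 95% interval of 0.84 to 2.65 (SE, limma unadjusted p = 0.00134, adjusted p = 0.348), and 1.42 above the median of all genes. In the same libraries its relative Ccl6, also a mouse ligand of CCR1, had 942, 830 and 734 FPKM in irradiated and 1211 and 1068 FPKM in non-irradiated CD24+ cells. Ccl6 thus lay lower in each irradiated library than in both non-irradiated ones, as did 1.13% of all genes. Its log2 fold change of -0.45 was not called (limma adjusted p = 0.594).

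For the other members the spread between libraries was as wide as the difference between irradiated and non-irradiated CD24+ cells, or wider. Ccl25 had 53.8, 43.4 and 25.7 FPKM in irradiated, against 29.4 and 65.1 FPKM in non-irradiated libraries. Il18 had 11.5, 9.0 and 9.2 FPKM in irradiated, against 2.4 and 16.2 FPKM in non-irradiated libraries. The 2 non-irradiated libraries enclosed all 3 irradiated ones for Il18 and 2 of them for Ccl25. They also enclosed the 3 irradiated libraries for Cx3cl1, which had 3.8, 3.8 and 3.4 FPKM in irradiated and 1.7 and 5.2 FPKM in non-irradiated cells, and for Il15, which had 1.31, 1.16 and 1.06 FPKM in irradiated and 0.78 and 1.63 FPKM in non-irradiated cells. Ccl20 (0.79 to 1.40 FPKM in irradiated, 0.90 and 1.24 FPKM in non-irradiated cells), Cxcl16 (0.89 to 3.09 FPKM in irradiated, 0.31 and 1.68 FPKM in non-irradiated cells) and Cxcl10 overlapped too, and Cxcl10 was listed at 0 in 1 non-irradiated library and had 1.56 FPKM in the other. Tnfsf10 had 9.6, 8.5 and 5.7 FPKM in irradiated, against 2.5 and 5.8 FPKM in non-irradiated libraries, with a log2 fold change of 0.85 ± 0.43 (SE, limma adjusted p = 0.348). The groups overlapped for Tnfsf10 by less than 0.1 FPKM. The 95% intervals of the 8 members other than Ccl9 all included 0, and for Il18 the interval ran to 1.64 on the log2 scale, so that a change of up to that size lay within the interval.

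The 2 non-irradiated libraries differed from each other. Replicate 1 was below replicate 2 for every member but Ccl28, which was at 0, and its enterocyte markers summed to 516 FPKM, against 2360 FPKM in replicate 2. Their part in the comparison was not tested. Without non-irradiated replicate 2, limma called Ccl9, Cx3cl1 and Il18 higher in irradiated CD24+ cells, at log2 fold changes of 2.09, 0.79 and 1.66 (adjusted p = 0.0222, 0.0218 and 0.0204), but 46.5% of all genes were then called. Without replicate 1 no member was called, and Cx3cl1 and Il18 turned to -0.43 and -0.67.

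Irradiated CD24− cells were set beside non-irradiated CD24+ cells as a secondary comparison, which shares libraries with both others. Here 7 members were called higher and none lower with limma, against 65.7% of all genes higher, 4.99% lower and 70.7% in either direction. The same 7 did not overlap between the groups, as did 70.1% of all genes in the higher direction. The 2 members not called, Ccl9 and Cxcl10, had unadjusted p of 0.138 and 0.346. Tnfsf10 was called in this comparison, with 23.0, 20.7 and 7.5 FPKM in CD24−, against 2.5 and 5.8 FPKM in non-irradiated libraries and a log2 fold change of 1.76 ± 0.43 (SE, limma adjusted p = 0.00405). That call was lost under median-of-ratios scaling and without non-irradiated replicate 1 (limma adjusted p = 0.104 and 0.0814). Cxcl16 had 7.2, 8.3 and 31.5 FPKM in CD24−, against 0.31 and 1.68 FPKM in non-irradiated libraries, and differed by 2.85 ± 0.55 on the log2 scale (SE, limma adjusted p = 0.000863).

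Ccl9 overlapped between these groups and was not called, with 32.0, 15.3 and 13.2 FPKM in CD24−, against 23.5 and 38.4 FPKM in non-irradiated CD24+ libraries. The log2 fold change was -0.66 with a 95% interval of -1.56 to 0.25 (limma adjusted p = 0.169). Its direction depended on the scaling, since it was 0.71 in TPM (limma adjusted p = 0.126), whereas median-of-ratios factors gave -1.65 (limma adjusted p = 0.00393). Without CD24− replicate 1 it was -1.03 (limma adjusted p = 0.037).

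The order of levels among the 10 genes differed by group. In CD24− cells Ccl25 at 367 FPKM stood above Il18 at 190, Cx3cl1 at 35.5, Ccl9 at 20.2, Tnfsf10 at 17.1, Cxcl16 at 15.7, Il15 at 8.5, Ccl20 at 5.4 and Cxcl10 at 1.2 FPKM. The neighbours from Cx3cl1 down to Ccl20 overlapped over libraries, and the other steps did not. In irradiated CD24+ cells Ccl9 at 108 FPKM came before Ccl25 at 41.0, Il18 at 9.9, Tnfsf10 at 7.9 and Cx3cl1 at 3.6 FPKM, and the remaining detected genes overlapped between 1.1 and 1.7 FPKM. Il18 and Tnfsf10 overlapped there. In non-irradiated CD24+ cells Ccl25 and Ccl9 overlapped at means of 47.3 and 31.0 FPKM, followed by Il18, Tnfsf10 and Cx3cl1 at 9.3, 4.1 and 3.5 FPKM, which overlapped as well.

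Counted over 38 chemokine ligand genes, the 7 chemokines of the set and 31 others, the summed level was 722, 681 and 426 FPKM in CD24−, 1076, 1033 and 876 FPKM in irradiated CD24+ and 1268 and 1184 FPKM in non-irradiated CD24+ libraries. All genes together summed to 540467 to 582799 FPKM in CD24− and 1329221 to 1638347 FPKM in CD24+ libraries. The order of the chemokine sums between the gates thus depends on the scaling, and nothing is read from it. The mix of genes within a library, given as shares of the chemokine sum, does not depend on it. Ccl25 made up 51.0%, 65.3% and 67.3% of the sum in CD24−, 5.0%, 4.2% and 2.94% in irradiated CD24+ and 2.32% and 5.5% in non-irradiated CD24+ libraries. Ccl9 made up 4.43%, 2.25% and 3.09% in CD24−, 6.55%, 14.7% and 11.8% in irradiated CD24+ and 1.85% and 3.24% in non-irradiated CD24+ libraries. Both CD24+ groups were dominated by Ccl6, with 80.4% to 87.6% in irradiated and 90.2% to 95.5% in non-irradiated libraries. Ccl6 made up 37.1%, 25.3% and 9.94% in CD24− libraries, and at 268, 172 and 42.4 FPKM it was called lower there than in irradiated CD24+ cells (log2 fold change -2.72 ± 0.55, SE, limma adjusted p = 0.0015). Of the 31 other chemokine genes 28 were under 1 FPKM in every library and 11 were listed at 0 in all, so that Ccl25, Ccl6 and Ccl9 carried most of the measured chemokine RNA.

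**Figure D3:**
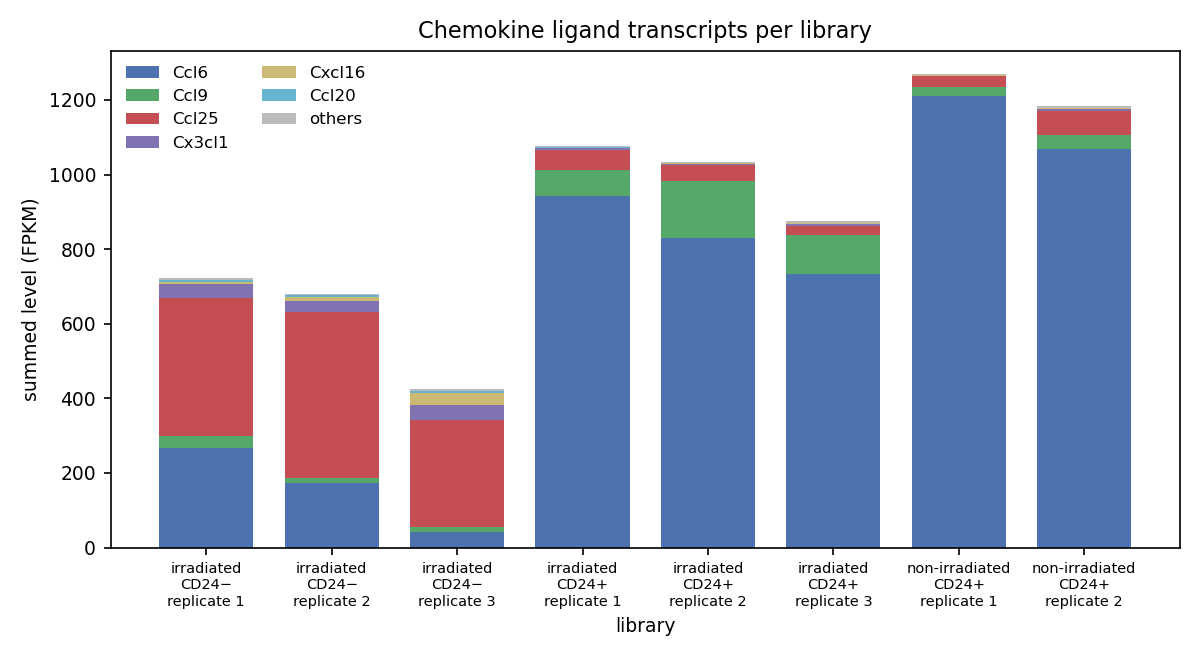
Summed level of 38 chemokine ligand genes in each library, in FPKM, divided by gene. The CD24− bars reach 426 to 722 FPKM and are mostly Ccl25, while the CD24+ bars reach 876 to 1268 FPKM and are mostly Ccl6. Bar heights depend on the scaling, because the libraries differ in their FPKM sums over all genes. The Ccl9 segment is broadest in the irradiated CD24+ libraries.

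Most receptors for these ligands were at trace levels in the sorted cells. Only CD45-negative cells were sorted, so low levels of receptors carried by leukocytes were set in advance by the gate. Of 19 receptor genes 14 were under 1 FPKM in all 8 libraries, among them Ccr9, Ccr6, Cxcr3, Cxcr6 and Cx3cr1, all under 0.2 FPKM. Of 4 receptors tested, 3 were called higher in CD24− than in irradiated CD24+ cells, beside 48.6% of all genes, and 2 under median-of-ratios scaling, beside 32.4%. With 4 genes, nothing is read from these shares. Il15ra, the chain that presents IL-15, averaged 5.1 FPKM in CD24− and 1.6 FPKM in irradiated CD24+ cells and differed by 1.23 ± 0.20 on the log2 scale (SE, limma adjusted p = 0.000419). Tnfrsf10b, the mouse death receptor for TRAIL, averaged 3.9 and 1.3 FPKM in these groups and differed by 1.07 ± 0.16 on the log2 scale (SE, limma adjusted p = 0.000205). Tnfrsf23, a mouse decoy receptor for TRAIL, had 1.01, 0.79 and 4.91 FPKM in CD24− and 0.13 to 0.34 FPKM in irradiated CD24+ libraries. It reached 1 FPKM only in CD24− libraries, so it passed the filter only through the gate where it was high. Under median-of-ratios scaling it was not called (limma adjusted p = 0.065). Both Il15 and its receptor chain were thus higher in CD24− cells. Il18r1, a chain of the IL-18 receptor, had 0.31, 0.81 and 2.56 FPKM in CD24− and 0.05, 0.65 and 0.66 FPKM in irradiated CD24+ libraries. It did not pass the filter and was not tested.

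A further list held genes for the processing and binding of IL-18, for the inflammasome, and for shedding or trimming chemokines. Most of its genes were higher in CD24− cells. Of 15 tested genes on this list 14 were called higher than in irradiated CD24+ cells and none lower with limma, against 48.6% of all genes. The median log2 fold change was 1.40. The list was chosen with earlier results of these data known, so its share is a description only. Gsdmd, the pore-forming gasdermin D, had 156, 211 and 261 FPKM in CD24− and 11.4, 13.0 and 14.9 FPKM in irradiated CD24+ libraries, and the log2 fold change was 3.88 ± 0.47 (SE, limma adjusted p = 6e-05). Casp1, the protease that matures IL-18, had 150, 154 and 109 FPKM in CD24− and 31.9, 28.0 and 27.6 FPKM in irradiated CD24+ libraries. Naip1, a bacterial needle-protein sensor of the inflammasome, differed by 2.48 ± 0.22 on the log2 scale (SE). Dpp4, a peptidase that trims several chemokines including CXCL10, differed by 3.02 ± 0.35 on the log2 scale (SE, limma adjusted p = 3.9e-05) and is also an enterocyte brush-border enzyme. The sheddases Adam10 and Adam17 differed less, by 1.03 ± 0.22 and 0.73 ± 0.20 on the log2 scale (SE), and Adam17 was not called under median-of-ratios scaling (limma adjusted p = 0.109).

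The remaining tested gene of this list, Il18bp, encodes the secreted inhibitor of IL-18. It had 3.8, 7.3 and 26.4 FPKM in CD24− and 2.5, 3.4 and 4.3 FPKM in irradiated CD24+ libraries. The groups overlapped, and its log2 fold change of 1.24 ± 0.56 was not called (SE, limma adjusted p = 0.0796), although it was called with the replicate block (limma adjusted p = 0.000426). In contrast to Il18, which was high in every CD24− library, most of the Il18bp difference stood in the third one.

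NF-kB and interferon response genes were mostly higher in CD24− cells as well. These lists too were chosen with earlier results of these data known, so their shares are a description only. Of 10 tested NF-kB response genes 9 were called higher and none lower than in irradiated CD24+ cells with limma, beside 48.6% of all genes called higher. Their median log2 fold change was 0.83, against 0.51 over all genes. With the replicate block 8 were called, beside 49.6% of all genes, and under median-of-ratios scaling 5, beside 32.4% of all genes. Relb, an NF-kB subunit, averaged 18.6 FPKM in CD24− and 6.5 FPKM in irradiated CD24+ cells, and Tnfaip3, the feedback inhibitor A20, averaged 7.2 and 2.0 FPKM. Bcl3 and Nfkbiz, nuclear IkB proteins, averaged 18.4 and 14.1 FPKM in CD24− and 6.9 and 5.3 FPKM in irradiated CD24+ cells. Of 20 tested interferon response genes 17 were called higher and none lower with limma, again beside 48.6% of all genes, with a median log2 fold change of 2.09. With the replicate block 18 were called, beside 49.6% of all genes called higher. Without the filter on low values it was 11, beside 31.4% of all genes. Isg15, a ubiquitin-like modifier, had 46.5, 107 and 167 FPKM in CD24− and 4.3, 9.3 and 9.7 FPKM in irradiated CD24+ libraries. Ifit1, which binds viral RNA, differed by 3.61 ± 0.79 on the log2 scale (SE, limma adjusted p = 0.00254). Cxcl10, which both pathways are known to induce, was not called, and whether it differed from the genes of either list was not tested.

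In irradiated against non-irradiated CD24+ cells limma called no gene of these lists, as it called none of all genes (0.0%). Genes of these lists, as of all genes, were called once non-irradiated replicate 2 was left out, with only replicate 1 in that group. Against non-irradiated CD24+ cells, 15 of 15 processing, 9 of 10 NF-kB and 17 of 20 interferon response genes were called higher in CD24− cells, beside 65.7% of all genes. Under median-of-ratios scaling 12 of 15 processing, 7 of 10 NF-kB and 6 of 20 interferon genes were called higher, beside 29.6% of all genes. Fewer interferon genes than in the full fit were called without non-irradiated replicate 1, which leaves 1 library in that group. Non-irradiated replicate 1 had a summed level of 39.5 FPKM over the 20 interferon genes, against 308 FPKM in non-irradiated replicate 2.

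**Figure D4:**
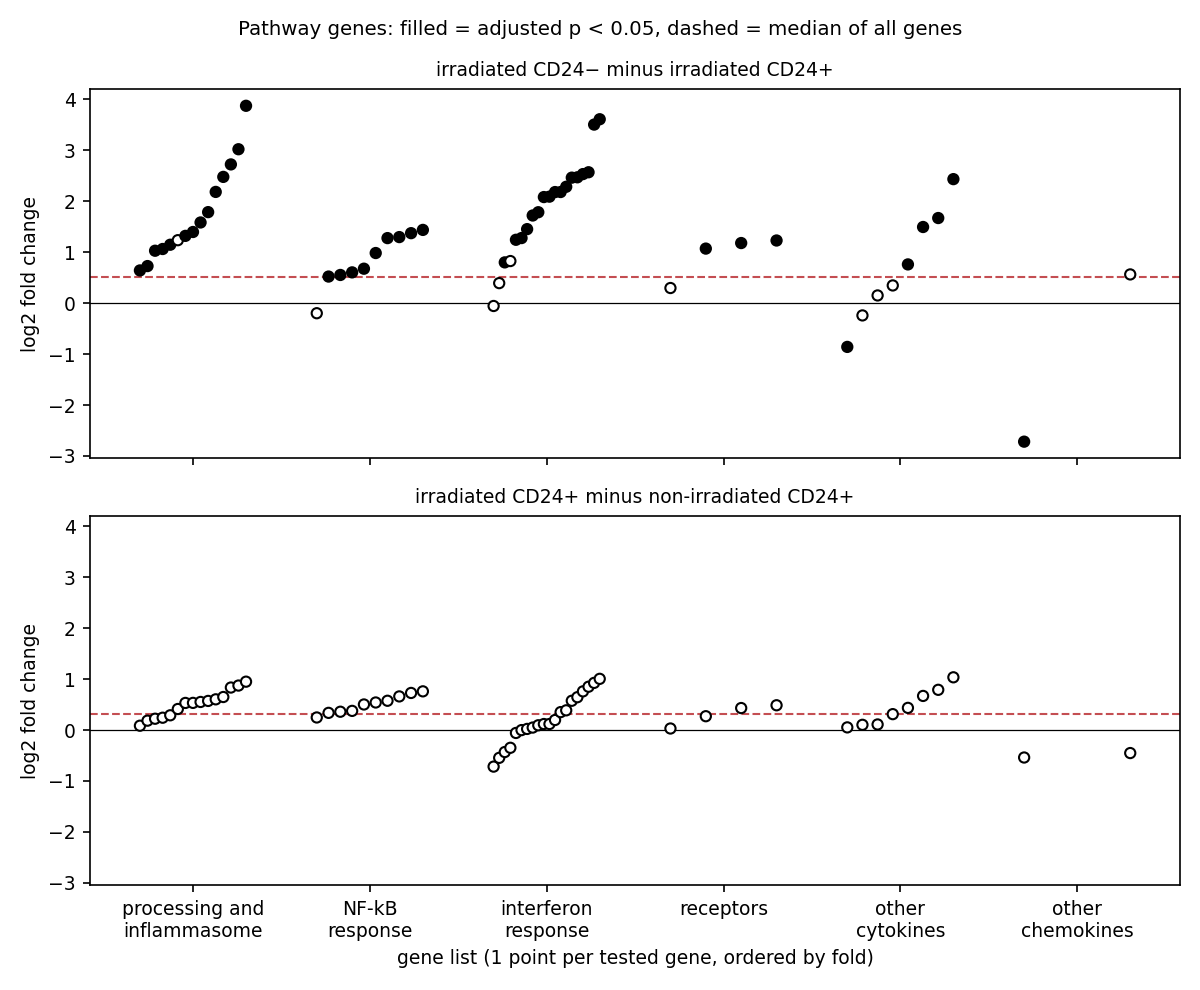
Log2 fold changes of the tested genes on 6 pathway lists. The upper panel compares irradiated CD24− with irradiated CD24+ cells and the lower panel irradiated with non-irradiated CD24+ cells. Filled points have a limma adjusted p under 0.05 and the dashed line is the median of all genes. Upper points are mostly filled and above the median for the processing, NF-kB and interferon lists, and all lower points are open.

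Other cytokine genes were mostly at trace levels. Of 45 other cytokine genes 34 were under 1 FPKM in every library and 8 were tested. In CD24− against irradiated CD24+ cells 4 of these 8 were called higher and 1 lower, a share near the 48.6% of all genes called higher. Their median log2 fold change of 0.55 was near the 0.51 of all genes. Some called genes passed the filter only through the gate where they were high, such as Il33 through CD24− and Tnfsf15 through CD24+ libraries. Nothing is read from these counts. Il33, an alarmin of the interleukin-1 family, had 3.5, 4.7 and 14.6 FPKM in CD24− and 0.17, 0.13 and 0.92 FPKM in irradiated CD24+ libraries, and the log2 fold change was 2.44 ± 0.40 (SE, limma adjusted p = 0.000375). Tnfsf13b and Tnfsf13, which encode the B-cell factors BAFF and APRIL, differed by 1.67 ± 0.19 and 1.50 ± 0.34 on the log2 scale (SE). Tnfsf15, a TNF-family cytokine, was lower, with 0.17 to 0.21 FPKM in CD24− and 0.997 to 1.28 FPKM in irradiated CD24+ libraries (log2 fold change -0.86 ± 0.14, SE, limma adjusted p = 0.000455), and in TPM it was not called against non-irradiated CD24+ cells, with a limma adjusted p of 0.111. Mif, a widely expressed cytokine, averaged 53.6 FPKM in CD24− and 49.5 FPKM in irradiated CD24+ cells and was not called there. In TPM it was called higher (limma adjusted p = 0.00534), as were 89.4% of all genes.

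The third CD24− library differed from the first and second for several of these genes. Cxcl16, Il33, Il18bp and Tnfrsf23 were highest in it, while Tnfsf10 and Tnfsf13 were lowest, at 7.5 and 7.8 FPKM, against 20.7 to 23.0 FPKM for Tnfsf10 and 18.9 to 20.6 FPKM for Tnfsf13 in the first and second. It also had the highest enteroendocrine marker sum, 3675 FPKM, against 413 and 1289 FPKM in the first and second library, and the highest Vim, at 43.5 FPKM, against 3.9 and 11.7 FPKM. The part of these markers was not tested. Il18, Ccl25, Cx3cl1, Il15 and Ccl20 kept their calls without this library.

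**Figure D5:**
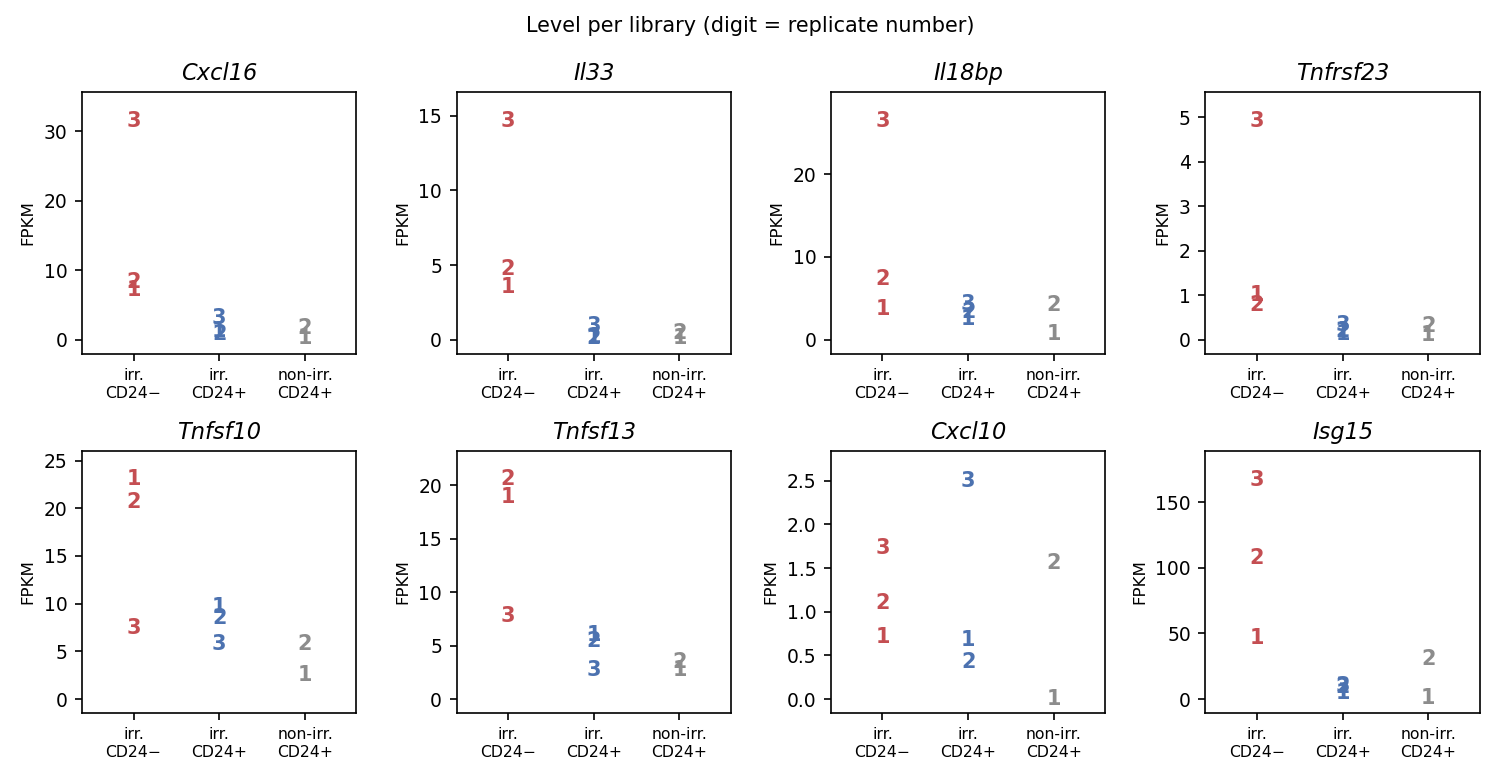
Levels of Cxcl16, Il33, Il18bp, Tnfrsf23, Tnfsf10, Tnfsf13, Cxcl10 and Isg15 in FPKM, in irradiated CD24−, irradiated CD24+ and non-irradiated CD24+ libraries, with digits for the replicate number. CD24− replicate 3 is the highest for Cxcl16 at 31.5 FPKM and the lowest of its group for Tnfsf10 at 7.5 FPKM. Non-irradiated replicate 1 is the lowest for Cxcl10, which is listed at 0 there.

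The genes with the most similar pattern were ranked by Pearson's r of log2(FPKM + 1) over the 8 libraries, among tested genes with a mean of at least 5 FPKM, as a description only, since the libraries fall into groups. Nearest to Ccl9 were Cd9, Pawr and Nfyb, at 0.962, 0.952 and 0.944. Cd9, a tetraspanin, had 65.4, 51.0 and 44.7 FPKM in CD24−, 83.9, 88.2 and 95.2 FPKM in irradiated CD24+ and 60.4 and 70.5 FPKM in non-irradiated CD24+ libraries, so that its group means had the order of those of Ccl9 over a narrower range. For Ccl25 the nearest were Slc6a20a, Arg2 and H2-T3, at 0.998 to 0.999. Arg2, the mitochondrial arginase, had 418, 513 and 277 FPKM in CD24− and 13.3 to 40.5 FPKM in irradiated CD24+ libraries.

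Il18 was nearest to Papss2 and Azi2, at 0.999 and 0.998, besides an entry whose name a spreadsheet had turned into a date. Cx3cl1 was nearest to B4galt5, Adap1 and Slc9a3, each at 0.999, and Il15 to Tmem243, Hsdl2 and Slc4a7, at 0.997 to 0.999. Slc9a3, the apical sodium-proton exchanger of enterocytes, had 62.1, 58.1 and 70.9 FPKM in CD24− and 3.6 to 4.2 FPKM in irradiated CD24+ libraries. Cxcl16 was nearest to Abhd5, Rab30 and Arl14, at 0.988 to 0.997, and all of these were highest in the third CD24− library. Ccl20 was nearest to P4hb, Cgref1 and Ndfip1, and Tnfsf10 to Thap11, Add3 and Mob1a, at 0.986 to 0.995. The lowest likeness was that of Cxcl10, with Mt2, Rbm3 and Fut2 at 0.865 to 0.912.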

How the data were processed

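RNA was sequenced from 8 sorted cell samples in 3 groups, as given by the sample titles. Per the labels' protocols, libraries were made with the TruSeq RNA kit v2, which keeps no strand. Build mm9 and the tools StringTie 1.3.4 and TopHat2 2.1.0 stand in the submitters' processing notes, and the annotation is not given in the sources used here. The authors deposited 1 table of FPKM values with 24015 rows, in which 2 repeated symbols were summed. The depth is not stated. From steps between low values and GENCODE M21 transcript lengths it was approximated at 34.9 to 45.1 reads per FPKM and kilobase in each library, so read numbers are rough.

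Values were transformed as log2(FPKM + 1), where the pseudocount of 1 damps low genes. Genes with at least 1 FPKM in at least 2 libraries (11190) were fitted over all 8 libraries in R 4.3.3 by the functions lmFit, contrasts.fit and eBayes (with trend) of limma 3.58.1, with Benjamini-Hochberg adjustment over all genes. The fit was tested on simulated data drawn with independent libraries, so that test does not cover libraries that deviate together. SE is limma's moderated standard error. No label says that replicates came from separate mice, so p-values measure the spread between these samples only. Figures used matplotlib 3.10.9 in Python 3.11.15.

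The residuals of CD24− and CD24+ irradiated libraries with the same replicate number, over genes, correlated at r = 0.366, 0.231 and 0.402, so the numbers were taken to pair these libraries, and the blocked value is given where it changes the call of a gene named for this comparison. The pairing comes from the data and not from the labels. The block was fitted over all 8 libraries, so it also joined the non-irradiated libraries to irradiated libraries of the same number. That joining has no basis in the labels, and it limits every blocked value given here.

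The 10 members and all lists were chosen with earlier results of these data known. Named genes are all members and, from each list, up to 4 called genes with the widest fold per comparison; 1 gene that the rule took is not reported here. Casp1 beside irradiated CD24+ cells, Adam10, Adam17, Il18bp, Zmynd15, Elavl1 and genes named for a library that stood apart were added once their values were known. As alternatives there were a pseudocount of 0.1, no filter, a filter at 5 FPKM, TPM, median-of-ratios scaling, scaling without Paneth products, only the 2 groups compared, array weights, a replicate block and leaving out each library.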

Additional observations from a re-analysis of the deposited data

How the results depend on the processing

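All 7 calls in irradiated CD24− against irradiated CD24+ cells, and those of Ccl25, Ccl20, Cxcl16, Cx3cl1, Il18 and Il15 against non-irradiated CD24+ cells, held under every alternative that could be run. Over libraries left out in turn, the count of called members ran between 7 and 8 against irradiated CD24+ and between 6 and 8 against non-irradiated CD24+ cells. For irradiated against non-irradiated CD24+ cells it ran between 0 and 3. With a replicate block this last count was 1 (Ccl9, log2 fold change 1.87, limma adjusted p = 0.00524), with 0.822% of all genes called. Residuals of same-numbered irradiated and non-irradiated CD24+ libraries correlated at 0.232 and -0.0499. With 2 non-irradiated libraries each such value has a mirror image of opposite sign, so these values cannot show a pairing. The groups came from mice with and without radiation, so a number cannot mark a shared mouse here.

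Scaling sets where 0 lies. Over all genes, the median difference on the log2 scale in irradiated CD24− against irradiated CD24+ cells was 0.51 as reported, 1.60 in TPM, 0.71 without Paneth products and 0.04 with median-of-ratios factors. Higher genes made up 87.0% of calls as reported, 97.5% in TPM and 57.1% with median-of-ratios factors; against non-irradiated CD24+ cells the median-of-ratios share was 57.4%, against 92.9% as reported. In TPM all 9 tested members were called against irradiated CD24+ cells, beside 91.7% of all genes. These members included Tnfsf10 (2.07) and Cxcl10 (0.76, limma adjusted p = 0.044), and Cxcl10 lay under the TPM median of 1.60. Tnfsf10 also passed without Paneth products (1.12) and with array weights (1.21). Cxcl10 could not be fitted with the filter at 5 FPKM.

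Signs changed only for uncalled values, and the cause was not tested. Against irradiated CD24+ cells, Cxcl10 turned to -0.20 with median-of-ratios factors and ran between -0.18 and 0.47 over libraries left out. Against non-irradiated CD24+ cells, Ccl9 in CD24− cells turned to 0.71 in TPM, and Cxcl10 ran between -0.26 and 1.10 over libraries left out. In irradiated against non-irradiated CD24+ cells, median-of-ratios factors turned Ccl20 to -0.26, Cx3cl1 to -0.15 and Il15 to -0.25. The replicate block turned Ccl25 to 0.072, Ccl20 to -0.044, Cxcl16 to -0.025 and Il15 to -0.040. TPM turned Ccl25 to 0.00057, and array weights turned Il15 to -5.8e-05. Over libraries left out in that comparison, Ccl25 ran between -0.72 and 0.40, Ccl20 between -0.11 and 0.13, Cxcl10 between -0.33 and 1.02, Cxcl16 between -0.059 and 0.97, Cx3cl1 between -0.43 and 0.79, Il18 between -0.67 and 1.66 and Il15 between -0.27 and 0.28.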
